A study of Mus musculus with 219 samples.

Results

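Fibroblast growth factor 4 (Fgf4), 2 of the receptors for fibroblast growth factors (Fgfr1 and Fgfr2), and 5 genes that are switched on by this signal (Spry2, Spry4, Dusp6, Etv4 and Etv5) were followed in 2-cell embryos and in blastocysts of the mouse. These 8 genes were taken by symbol from the 32285 genes of each count table, and all 8 were listed in both the table of blastomeres and the table of blastocysts. The embryos came from oocytes of B6C3F1 females fertilised with sperm of CD1 males by intracytoplasmic sperm injection (ICSI), in which a sperm head is placed by needle at a chosen place in the oocyte. The place was contralateral (opposite the meiotic spindle), ipsilateral (next to the spindle) or equatorial (between these poles), and all embryos of the series had received ICSI. At the 2-cell stage some embryos were bisected, and the sister blastomeres were either lysed for RNA or cultured apart until each formed a twin blastocyst, whereas intact blastocysts grew from embryos that were not bisected.

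After filtering, the data held 110 blastomeres of 55 2-cell embryos (21 contralateral, 21 ipsilateral, 13 equatorial), 38 twin blastocysts of 19 pairs (6, 7 and 6 pairs) and 31 intact blastocysts (11, 8 and 12). The median total count was 1340425 per blastomere (360474 to 2100561), 1093478 per twin (713410 to 2161062) and 705837 per intact blastocyst (234099 to 1254428). The intact group held all 6 blastocysts under 500000 counts, of which 4 were contralateral and 2 equatorial. The labelled stages matched their markers. The summed level of 5 oocyte genes had a median of 2367 CPM (counts of a gene scaled to a common library total) in blastomeres and of 2.07 in twins and 0 in intact blastocysts, and that of 8 trophectoderm genes was 108.3 CPM in blastomeres, 3711 in twins and 4118 in intact blastocysts. Each blastocyst was lysed whole, so a library is a mixture of trophectoderm, epiblast and primitive endoderm, and fewer cells of a type cannot be told apart from less RNA per cell.

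In the blastocyst, Fgf4 is secreted by epiblast cells and is read by neighbouring cells through the receptor tyrosine kinases Fgfr1 and Fgfr2, which act through Ras, Raf, Mek and Erk. The pathway is known for directing inner cells towards primitive endoderm and for sustaining proliferation of trophectoderm. Active Erk turns on its own brakes, the Sprouty proteins Spry2 and Spry4 and the Erk phosphatase Dusp6, together with the Ets transcription factors Etv4 and Etv5, so the levels of these genes are widely read as a record of the signal.

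Because Fgf4 and Etv5 varied together across intact blastocysts, the 250 bases before the start sites that RefSeq gives for these genes on GRCm38.p6 are shown, 5′ to 3′ on the strand of the gene. Capitals mark GGAA, the core of sites bound by Ets factors, or its reverse complement TTCC. The Fgf4 stretch is chr7:144861136-144861385 (plus strand), and those of the start sites of Etv5 are chr16:22439571-22439820 and chr16:22438369-22438618 (minus strand).
Fgf4: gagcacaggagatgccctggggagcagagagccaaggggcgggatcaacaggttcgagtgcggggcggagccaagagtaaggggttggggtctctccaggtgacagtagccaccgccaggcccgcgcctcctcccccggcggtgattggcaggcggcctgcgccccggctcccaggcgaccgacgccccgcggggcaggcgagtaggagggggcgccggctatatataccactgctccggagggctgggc
Etv5, upstream start: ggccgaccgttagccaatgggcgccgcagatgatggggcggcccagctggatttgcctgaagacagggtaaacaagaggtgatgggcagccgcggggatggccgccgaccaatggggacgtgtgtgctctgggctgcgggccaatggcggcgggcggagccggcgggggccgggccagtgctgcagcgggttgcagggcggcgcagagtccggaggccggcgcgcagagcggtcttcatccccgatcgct
Etv5, downstream start: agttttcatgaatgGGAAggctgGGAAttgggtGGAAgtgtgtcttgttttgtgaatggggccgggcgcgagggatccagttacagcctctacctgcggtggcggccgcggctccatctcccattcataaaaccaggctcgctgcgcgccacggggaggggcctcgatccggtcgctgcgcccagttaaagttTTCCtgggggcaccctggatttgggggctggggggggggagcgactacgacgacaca
The core was found 0 times before the start of Fgf4, 0 times before the upstream start of Etv5 and 4 times before the downstream start. It was found 6 times for Dusp6, 3 times for Spry2 and 2 times for Fgfr2, the other members whose windows were used. The median over all windows was 3, with at least 1 match in 93.4% of them. Windows of Fgfr1, Spry4 and Etv4 were not used. The longer Ets motif CCGGAAGT, searched on both strands from 250 bases before to 50 bases after the start, was in 0 of the 6 windows of these 5 genes and in 3.89% of all 32851 windows. These matches describe letters only, and no binding was measured.

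Per unit of transcript length, the order of the 8 genes differed between the stages. In TPM (counts scaled by exon length and then to a common total), the median over blastomeres was 465 for Spry4, followed by 16.7 for Dusp6, 12.8 for Etv5, 10.2 for Spry2, 6.63 for Fgfr1, 3.88 for Fgfr2, 2.00 for Fgf4 and 0 for Etv4. Over intact blastocysts the highest median was that of Dusp6 (126.5 TPM), followed by Fgfr2 (85.3), Etv5 (35.99), Spry2 (34.3), Fgfr1 (13.7), Fgf4 (9.17), Etv4 (3.31) and Spry4 (2.19). Over twins it was again Dusp6 (70.8 TPM), followed by Fgfr2 (64.5), Spry2 (50.6), Etv5 (41.1), Fgfr1 (29.03), Fgf4 (18.8), Spry4 (3.06) and Etv4 (0.822). Spry4 was thus first among the 8 in blastomeres and last in intact blastocysts. The counts behind these levels were small for the ligand, with a median of 2 Fgf4 counts per blastomere, 22 per twin and 7 per intact blastocyst, and larger for Fgfr2, with medians of 16, 255.5 and 189.

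**Figure D1:**
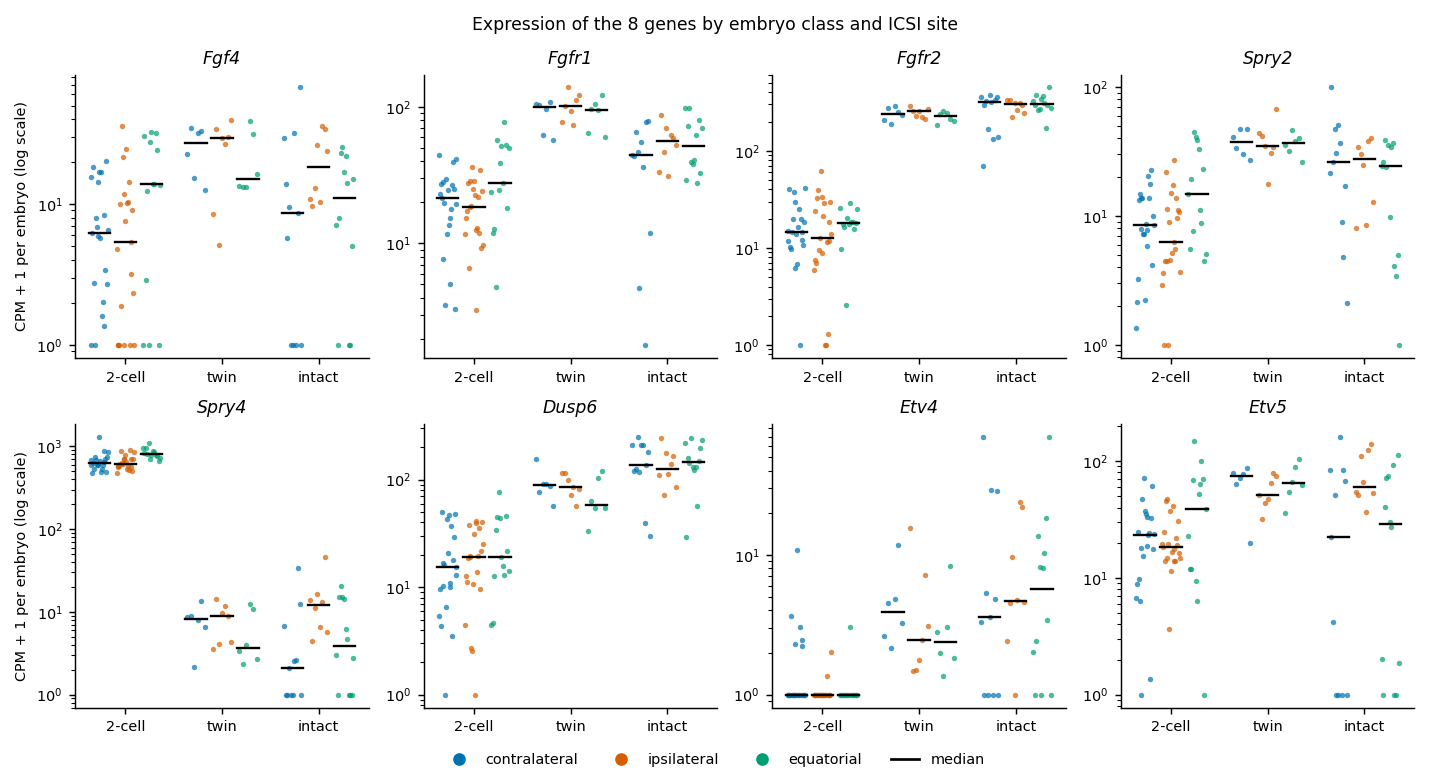
Level of each of the 8 genes per embryo as CPM + 1 on a log axis, with sister blastomeres and twins of an embryo summed, for 2-cell embryos (n = 55), twin embryos (n = 19) and intact blastocysts (n = 31) by ICSI site, where each point is an embryo and each bar a median. Spry4 lies at 473 to 1295 CPM in every 2-cell embryo and at or below 45.3 CPM in every blastocyst, Fgfr2 lies higher in every blastocyst than in any 2-cell embryo, and points of Fgf4 and Etv5 lie at 0 in intact blastocysts of the contralateral and equatorial groups.

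On build GRCm38 with GENCODE gene models, the ligand gene Fgf4 lies on the plus strand of chromosome 7 (chr7:144847367-144865243). The receptor genes lie at chr8:25513654-25575718 (Fgfr1, plus strand) and chr7:130162451-133123350 (Fgfr2, minus strand). The feedback inhibitors lie at chr14:105891947-105896819 (Spry2, minus), chr18:38586247-38601415 (Spry4, minus) and chr10:99263231-99267489 (Dusp6, plus), and the Ets factors at chr11:101769742-101785371 (Etv4, minus) and chr16:22381309-22439719 (Etv5, minus). Counts were of reads over the exons of each gene, without regard to strand.

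Whether the members differed between the 2-cell stage and the blastocyst was tested between 55 2-cell embryos and 31 intact blastocysts. Spry4, a Sprouty protein that dampens signalling from receptor to Erk, was the member that was higher at the 2-cell stage, and the receptor Fgfr2, the phosphatase Dusp6, the inhibitor Spry2 and the receptor Fgfr1 were lower. Of the 7 members tested, 1 was called higher and 4 lower with edgeR's quasi-likelihood test at a Benjamini-Hochberg adjusted p under 0.05, against 49.1% of all 12645 genes called higher and 35.7% called lower, 84.9% in all. Most genes were thus called in this comparison, and the median log2 difference over all genes was 0.43, so a difference of a member is best read beside that shift. The library names give a plate for blastomeres but not for blastocysts, all of which were taken as plate 2. On plate 1 were 18 contralateral, 13 ipsilateral and 11 equatorial 2-cell embryos. Per the study, blastocysts had single-end reads only, whereas blastomeres had paired-end reads in 1 dataset and single-end reads in the other. Only the first reads of the pairs were kept, cut to the same length. Stage is thus largely confounded with plate as taken here, and read type differed too. Neither was a term of the fit. With the 2-cell embryos of plate 2 only, 7778 of 10292 genes were called. The part of plate in the stage differences was not tested further.

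Spry4 had 473 CPM in the lowest, 677 in the median and 1295 in the highest 2-cell embryo, and 0, 3.74 and 45.3 CPM in the lowest, median and highest intact blastocyst, of which 9 were at 0. The groups did not overlap. The fitted log2 difference was 6.79 ± 0.23 (SE). Spry4 passed the filter on low counts only through the 2-cell embryos, and intact blastocysts held a median of 2 counts of it. No fold is therefore given, and its call restates the levels above. Every blastomere taken alone held at least 262 counts of Spry4, so the level did not rest on a few libraries.

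Fgfr2 was the other member without overlap, with 0, 15.3 and 61.3 CPM in the lowest, median and highest 2-cell embryo and 68.4, 309 and 449 CPM in intact blastocysts. Over all genes tested, 1929 (15.3%) had groups that did not overlap. Fgfr2 fell by 3.74 ± 0.23 on the log2 scale, to a 13.4-fold lower level at the 2-cell stage. Its partner Fgfr1, the receptor that epiblast cells also carry, had 2.24, 21.1 and 77.1 CPM in 2-cell embryos and 0.797, 46.3 and 98.5 CPM in intact blastocysts, with wide overlap, and a log2 difference of -0.80 ± 0.22 (adjusted p = 0.000668). The receptors thus differed by unequal amounts between the stages.

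Dusp6, which removes the activating phosphates from Erk, had 0, 15.7 and 76.1 CPM in 2-cell embryos and 28.4, 138 and 248 CPM in intact blastocysts, with some overlap, and a log2 difference of -2.48 ± 0.25. Spry2 had 0, 7.76 and 43.8 CPM against 0, 24.1 and 98.3 CPM and a log2 difference of -0.84 ± 0.32 (adjusted p = 0.0124). The groups overlapped over most of their range. The Spry2 call was lost without the blastocysts under 500000 counts (log2 difference -0.63, adjusted p = 0.0778).

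The ligand itself and Etv5 were not called. Fgf4 had 0, 5.92 and 34.99 CPM in 2-cell embryos, 11 of them at 0, and 0, 9.92 and 66.2 CPM in intact blastocysts, 7 of them at 0. The log2 difference of Fgf4 was -0.40 with a 95% interval of -1.28 to 0.49. Etv5, an Ets activator downstream of Erk, had 0, 18.3 and 149 CPM against 0, 50.5 and 159.5 CPM, with a log2 difference of -0.54 and an interval of -1.27 to 0.18. The groups overlapped for both genes, with a higher top value of Fgf4 in intact blastocysts and nearly the same range for Etv5. Etv4, the close relative of Etv5, had counts in 9 of 55 2-cell embryos and in 23 of 31 intact blastocysts, and was too low to be tested.

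Blastomeres of the 2-cell stage still hold RNA of the oocyte. The 4 genes of embryonic transcription at the 2-cell stage fixed as markers were Zscan4d, Zfp352, Tcstv1 and Tcstv3. They summed to a median of 951 CPM in blastomeres and 0 in twins and intact blastocysts. Zscan4d alone had a median of 185.8 CPM and was counted in all 110 blastomeres. The study, in contrast, names Zscan4 as a late 2-cell transcript and reports it absent from all of its 110 blastomeres. Markers of cumulus cells, which surround the oocyte, summed to a median of 4.36 CPM in blastomeres (0 to 66.8) and 0 in blastocysts. The part of these cell states in the differences of the members was not tested.

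The wider pathway was described from 54 further genes of receptors, adaptors, Ras, Raf, Erk, inhibitors and Erk targets. Of the 44 that passed the filter in this comparison, 22 were higher at the 2-cell stage and 14 lower, shares close to the 49.1% higher and 35.7% lower over all genes, with a median log2 difference of 0.68 beside 0.43. Among the called genes with the highest fitted differences, the Erk phosphatase Dusp7 differed by 4.87 ± 0.20 and the Ets factor Elk4 by 4.16 ± 0.20. The other 2 were near 0 in intact blastocysts and passed the filter through the 2-cell embryos, so no fold is given for them. The ligand Fgf8 had a median of 19.8 CPM in blastomeres and was at 0 in 30 of 31 intact blastocysts, and the Ets factor Etv1 had 42.8 CPM and was at 0 in 19 of 31. The lowest fitted differences were those of the adaptor Gab1, the Ets repressor Erf, the phosphatase Dusp9 (-3.49 ± 0.35) and the Erk target Junb. Gab1, Erf and Junb were near 0 in blastomeres, with medians of 0, 1.045 and 0 CPM. They were at 0 in 78, 46 and 74 of 110 blastomeres, so no size of difference is given for these genes. Both signs were found among these Ets factors and phosphatases, as between the members Spry4 and Spry2.

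Twin and intact blastocysts were compared next, to ask how a blastocyst grown from 1 of the sister blastomeres differs from one grown from the whole embryo. Per the study, bisection also squeezed the blastomeres out of the zona pellucida, the coat of the oocyte, and each was then cultured singly. An origin from 1 blastomere cannot be told apart from that handling. The receptor Fgfr1 was higher in twins, and the receptor Fgfr2 and the phosphatase Dusp6 were lower. Of the 6 members tested, 1 was called higher and 2 lower, beside 20.4% of all 9379 genes called higher and 21.9% called lower, 42.3% in all. The 19 twin embryos, each the sum of its twins, entered with the 31 intact blastocysts, and ICSI site was a term of the fit. These are the same intact blastocysts as in the comparison with 2-cell embryos.

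Fgfr1 had 56.9 CPM in the lowest, 96.0 in the median and 139 in the highest twin embryo, against 0.797, 46.3 and 98.5 CPM in intact blastocysts. The highest intact values reached the middle of the twin range. The log2 difference was 0.78 ± 0.21 (1.72-fold higher, adjusted p = 0.00194). Fgfr2, in contrast, had 184, 241 and 288 CPM in twins and 68.4, 309 and 449 CPM in intact blastocysts, and differed by -0.38 ± 0.12 on the log2 scale (1.303-fold lower, adjusted p = 0.0078). The Fgfr2 values of twins lay inside the range of the intact ones. The Fgfr2 call was lost with the total count as a covariate and only the twin lettered a of each pair (log2 difference -0.29, adjusted p = 0.181).

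Dusp6 had 32.2, 85.2 and 154 CPM in the lowest, median and highest twin embryo and 28.4, 138 and 248 CPM in intact blastocysts. It was 1.87-fold lower in twins (log2 difference -0.91 ± 0.19, adjusted p = 0.000123) and kept that call in each of the 9 alternative analyses of this comparison. The lowest values of both groups were alike, and the intact group alone reached above 154 CPM. No member had groups without overlap, a state that 0.448% of genes tested showed.

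Fgf4, Spry2 and Etv5 had positive differences that were not called. Fgf4 had 4.08, 25.5 and 38.2 CPM in twin embryos, none of them at 0, and 0, 9.92 and 66.2 CPM in intact blastocysts, with a log2 difference of 0.55 ± 0.38 (adjusted p = 0.254, interval -0.20 to 1.302). A rank-sum test on CPM by permutation called it (0.63, adjusted p = 0.016), as it did 5002 of all 9379 genes. Spry2 had 16.8, 34.6 and 65.96 CPM in twins against 0, 24.1 and 98.3 CPM, with a log2 difference of 0.53 ± 0.31 (adjusted p = 0.157, interval -0.07 to 1.14), and was called in 4 alternatives, among them the fit without blastocysts under 500000 counts (0.71, adjusted p = 0.0429). Etv5 had 18.96, 63.7 and 102.3 CPM in twins against 0, 50.5 and 159.5 CPM (log2 difference 0.27 ± 0.44, interval -0.60 to 1.14). For each of the 3 genes the range of twin embryos was the narrower and lay inside that of intact blastocysts. Each twin embryo is a sum of 2 libraries, with median totals by site of 2117431 to 2298458 counts against 633460 to 846604 in intact blastocysts. Twins taken singly spanned 0 to 56.9 CPM of Fgf4, 8.33 to 90.6 CPM of Spry2 and 0 to 115.8 CPM of Etv5. The part of summing and depth in the narrower ranges was not tested.

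The lowest members, Spry4 and Etv4, did not pass the filter here. Spry4 had 1.16, 7.05 and 13.2 CPM in twin embryos and 0, 3.74 and 45.3 CPM in intact blastocysts. Etv4 had 0.368, 1.79 and 14.5 CPM in twins and 0, 3.59 and 68.4 CPM in intact blastocysts, of which 8 were at 0. With no filter on low counts, Etv4 was lower in twins (log2 difference -1.64, adjusted p = 0.0262) and Spry4 was not called.

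**Figure D2:**
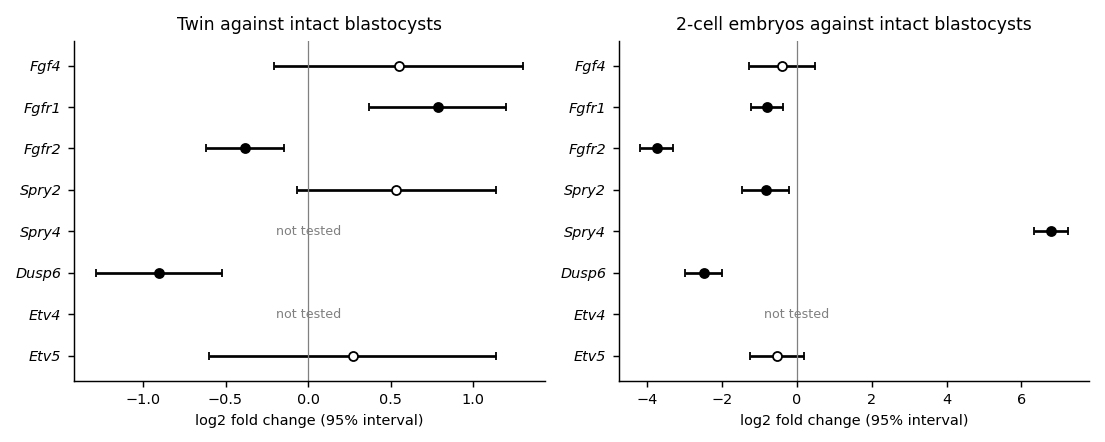
Log2 fold change of each tested member with its 95% interval (edgeR, quasi-likelihood) for 2-cell embryos against intact blastocysts and for twin embryos against intact blastocysts. Filled points have an adjusted p under 0.05. Spry4 stands at 6.79 in the first comparison, which it entered only through the 2-cell embryos, and Etv4 was not tested there. In the second Fgfr1 (0.78) lies above 0 and Fgfr2 (-0.38) and Dusp6 (-0.91) lie below it, with Spry4 and Etv4 not tested.

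Markers of the cell types of the blastocyst were counted in the same comparison, in which 20.4% of all 9379 genes were called higher in twins and 21.9% lower. Of the 7 epiblast markers tested, 5 were higher in twins (Pou5f1, Tdgf1, Klf2, Sox2 and Nanog), and the sum over the list of 8 was 277 to 892 CPM in twins (median 549) and 28.1 to 577 CPM in intact blastocysts (median 211). Of the 8 trophectoderm markers, 2 were higher (Cdx2 and Tead4) and 4 lower (Eomes, Elf5, Tfap2c and Gata3), with sums of 3031 to 4314 CPM in twins and 3161 to 6602 CPM in intact blastocysts. Of the 8 primitive endoderm markers, 2 were higher (Gata6 and Dab2) and 3 lower (Col4a1, Sox7 and Lama1), with sums of 749 to 1418 and 565 to 1762 CPM. The part of these lists in the differences of Fgfr1, Fgfr2 and Dusp6 was not tested.

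Of the wider list, 37 of 54 genes were tested between twins and intact blastocysts, of which 6 were higher in twins and 15 lower, beside 20.4% and 21.9% of all genes (median log2 difference -0.28 beside -0.01 over all genes). The lower genes included the phosphatase Dusp9 (-2.15 ± 0.25), the Erk target Junb (-1.70 ± 0.31) and Mapk3, which encodes Erk itself (-1.55 ± 0.24). Ccnd1, a cyclin of the G1 phase, was also lower, with a median of 1.86 CPM in twins and 15.06 CPM in intact blastocysts. It was at 0 in 10 of 38 twins, so no size of difference is given for it. The higher ones included the transcription factor Myc (0.93 ± 0.29), the phosphatase Dusp14 (0.74 ± 0.15) and the Sprouty-related inhibitor Spred2 (0.69 ± 0.28). The nuclear Erk phosphatase Dusp4 was also higher, with a median of 58.1 CPM in twins and 7.06 CPM in intact blastocysts. It was at 0 in 7 of 31 intact blastocysts, so no size of difference is given for it either. Phosphatases were found on both sides, with Dusp6 and Dusp9 lower and Dusp4 and Dusp14 higher in twins.

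The site of sperm injection was the main variable of the study. In twin blastocysts and in intact blastocysts, no member was called between any pair of sites with edgeR's quasi-likelihood test, and no member had an unadjusted p under 0.05. Over all genes tested (10995 in twins, 9165 in intact blastocysts), 0 were called in each of the 6 contrasts (0% in each), while 728, 426 and 754 genes in twins (6.62%, 3.87% and 6.86%) and 629, 338 and 522 in intact blastocysts (6.86%, 3.69% and 5.7%) had an unadjusted p under 0.05 for contralateral against equatorial, ipsilateral against equatorial and contralateral against ipsilateral ICSI. DESeq2 called 9, 1 and 1 genes in the contrasts of twins and 1, 0 and 0 in those of intact blastocysts, and the rank-sum test called 0 in each, with no member called by either.

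In intact blastocysts the median Fgf4 level was 7.71 CPM in the contralateral (0 to 66.2), 17.4 in the ipsilateral (8.72 to 35.1) and 10.1 in the equatorial group (0 to 24.3). That of Etv5 was 21.4 CPM (0 to 159.5), 59.4 CPM (35.8 to 139.6) and 27.7 CPM (0 to 112). Every ipsilateral blastocyst had counts of Fgf4, Etv5 and Spry4, whereas 4 contralateral and 3 equatorial ones had 0 counts of Fgf4 and of Etv5. The intervals of the site differences were wide, as in ipsilateral against equatorial, where the log2 difference was 0.79 for Fgf4 (-0.70 to 2.28) and 1.05 for Etv5 (-0.71 to 2.81). They were narrower for the more abundant Fgfr2 (-0.18, interval -0.61 to 0.26) and Dusp6 (-0.19, interval -0.83 to 0.44). Spry4 and Etv4 were not tested in intact blastocysts.

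In twin embryos the median Fgf4 level was 26.3 CPM in the contralateral (11.5 to 33.7), 28.6 in the ipsilateral (4.08 to 38.2) and 13.98 in the equatorial group (12.2 to 37.9). Contralateral minus equatorial, the log2 difference was 0.29 for Fgf4 (-0.54 to 1.12) and 0.13 for Fgfr2 (-0.08 to 0.35). The nearest to a site difference among members in twins was Dusp6, with medians of 88.2 CPM (56.1 to 154), 85.2 CPM (55.7 to 113.7) and 57.4 CPM (32.2 to 120) in the contralateral, ipsilateral and equatorial groups and a contralateral minus equatorial log2 difference of 0.43 (-0.08 to 0.94, unadjusted p = 0.11). The groups overlapped. Etv4 was not tested in twins. A difference of site effects between twins and intact blastocysts was tested for all 8 members and all 10689 genes, and 0 members and 0 genes were called in each of the 3 contrasts (0%), while 290, 220 and 362 genes (2.71%, 2.06% and 3.39%) but 0 members had an unadjusted p under 0.05.

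At the 2-cell stage, Spry4 was lower after contralateral and after ipsilateral ICSI than after equatorial ICSI. It was the 1 member called of the 7 tested, beside 13.2% of all 13141 genes called in contralateral against equatorial (6.06% lower, 7.12% higher) and 6.65% in ipsilateral against equatorial (3.22% lower, 3.43% higher). These 2 contrasts share the 13 equatorial embryos. Contralateral against ipsilateral gave 0 calls (0%) by edgeR, DESeq2 and the rank-sum test, although 4.22% of genes and 0 members (555 genes) reached an unadjusted p under 0.05.

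Spry4 had 478, 638 and 1295 CPM in the lowest, median and highest of 21 contralateral embryos, 473, 614 and 911 CPM in 21 ipsilateral embryos and 672, 807 and 1114 CPM in 13 equatorial embryos. The groups overlapped, and the single highest embryo was contralateral. The log2 difference from the equatorial group was -0.33 ± 0.10 for the contralateral (adjusted p = 0.0188) and -0.39 ± 0.10 for the ipsilateral group (adjusted p = 0.0137), or 1.26-fold and 1.31-fold lower. Contralateral minus ipsilateral, it was 0.06 (-0.12 to 0.23).

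The blastomeres were prepared on 2 plates, which held different shares of the sites. On plate 1 alone (18 contralateral, 13 ipsilateral and 11 equatorial embryos) the medians of Spry4 were 625.1, 614 and 841 CPM, and the log2 differences from the equatorial group were -0.36 (adjusted p = 0.0113) and -0.44 (adjusted p = 0.00909). Plate 2 held 3, 8 and 2 embryos, too few equatorial ones for a fit, with medians of 737, 634 and 701 CPM, an order that differed from that on plate 1.

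The equatorial embryos were also the less deeply sequenced ones, with a median total of 2179479 counts per embryo against 2675357 in the contralateral and 3050508 in the ipsilateral group, and a median of 13417 genes detected against 14152 and 14233. With depth terms in the fit the differences of Spry4 were -0.22 (adjusted p = 0.146) and -0.18 (adjusted p = 0.529), and neither was called. Among embryos with a mitochondrial share of at most 2% the contralateral difference was not called either (-0.27, adjusted p = 0.120). The part of depth in the site difference was not tested apart from these fits. Sums of the oocyte markers had medians of 2494, 2249 and 2274 CPM in the contralateral, ipsilateral and equatorial groups and those of the first embryonic genes 969, 889.7 and 862 CPM.

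**Figure D3:**
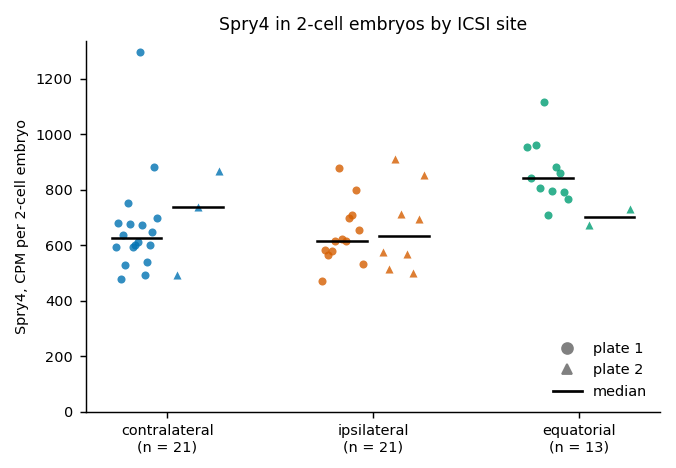
Spry4 level per 2-cell embryo in CPM (both sister blastomeres summed) by ICSI site and plate, where each point is an embryo and each bar a median. On plate 1 the equatorial median of 841 CPM lies above the contralateral (625.1) and ipsilateral (614) medians, and plate 2 holds 2 equatorial embryos.

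3 further members had an unadjusted p under 0.05 in both contrasts with the equatorial group but were not called. Spry2 had median levels of 7.56, 5.29 and 13.8 CPM in the contralateral, ipsilateral and equatorial groups, with log2 differences from the equatorial group of -1.09 (adjusted p = 0.142) and -1.21 (adjusted p = 0.199). Etv5 had medians of 22.1, 17.4 and 38.01 CPM and differences of -0.95 (adjusted p = 0.159) and -1.11 (adjusted p = 0.143). Fgfr1 had medians of 20.5, 17.5 and 26.97 CPM and differences of -0.74 (adjusted p = 0.159) and -0.90 (adjusted p = 0.116). With Spry4 this made 4 of 7 members at an unadjusted p under 0.05 in each contrast, where 26% and 19.6% of all genes were at that level. On plate 2, with 2 equatorial embryos, the medians in the same order were 7.56, 9.19 and 3.77 CPM for Spry2. They were 22.7, 16.1 and 19.01 CPM for Etv5 and 18.4, 11.8 and 33.4 CPM for Fgfr1. The equatorial median was thus the highest there for Fgfr1 but not for Spry2 or Etv5. As given above, the equatorial embryos were also the less deeply sequenced ones. Fgf4 had medians of 5.23, 4.34 and 12.8 CPM, but wide intervals (-1.03, from -2.45 to 0.38, and -0.89, from -2.32 to 0.55). Fgfr2 differed by -0.01 (-0.94 to 0.92) and 0.01 (-0.93 to 0.96).

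In the wider list, 6 of 44 genes tested were called in contralateral against equatorial 2-cell embryos, a share near the 13.2% of all genes. The kinase Map2k1 (Mek1) was higher (0.30 ± 0.08), and Hras (-0.89 ± 0.24), the membrane inhibitor Il17rd (-0.88 ± 0.26), the repressor Cic (-0.85 ± 0.20), the phosphatase Dusp7 (-0.57 ± 0.10) and the phosphatase Ptpn11 (-0.40 ± 0.10), which carries signals from receptors to Ras, were lower. In ipsilateral against equatorial embryos 3 of 44 were called, near the 6.65% of all genes, and all were lower, namely Dusp7 (-0.55 ± 0.10), Nras (-0.45 ± 0.12) and Ptpn11 (-0.42 ± 0.10). The median log2 difference of the list was -0.26 and -0.22 in these contrasts, beside -0.00015 and 0.01 over all genes.

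Twins of a pair share a zygote, and the agreement of their levels was measured by the intraclass correlation (ICC) of log2(CPM + 1), which is 1 where twins are alike and pairs differ and near 0 or below where twins are no more alike than unrelated twins. No member was called (0 of 7 tested) when partners were permuted within ICSI site, beside 45 of 10995 genes (0.409%) called and 12.8% at an unadjusted p under 0.05. The ICC was 0.25 for Etv5 (permutation p = 0.036, adjusted p = 0.355), 0.24 for Dusp6, 0.19 for Fgfr2, 0.15 for Fgfr1 and 0.052 for Fgf4. It was -0.15 for Spry4, -0.30 for Spry2 and -0.30 for Etv4, and the permutation p of the 7 members other than Etv5 lay between 0.158 and 0.894. The median ICC over all genes was 0.0947.

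The size of the differences between twins varied with the member. Fgf4 differed between the twins of a pair by a mean of 1.33 on the log2 scale, against 1.46 between twins of different pairs. The closest twins had 8.06 and 6.75 CPM of Fgf4, and the most distant pair, in the equatorial group, had 30.4 and 0 CPM (37 and 0 counts). Another equatorial pair had 1.04 and 28.03 CPM, and a contralateral pair 6.29 and 45.3 CPM. In these 3 pairs the sister of the low twin lay above the median of 20.95 CPM over all twins, but in an ipsilateral pair both twins were low (5.42 and 2.89 CPM).

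Fgfr2, by contrast, differed between twins of a pair by a mean of 0.24 (0.27 between pairs) and by at most 0.63, in a contralateral pair with 350.0 and 226 CPM. Etv5 differed by a mean of 0.88 (0.94 between pairs), and by most in a contralateral pair with 37.1 and 0 CPM (51 and 0 counts). Spry2 differed by most in an equatorial pair, with 86.5 and 8.33 CPM. Twins of a pair were thus close in the abundant receptor, and some pairs were wide apart in the ligand, Etv5 or Spry2. The mean distance within pairs was near that between pairs for each of these genes.

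**Figure D4:**
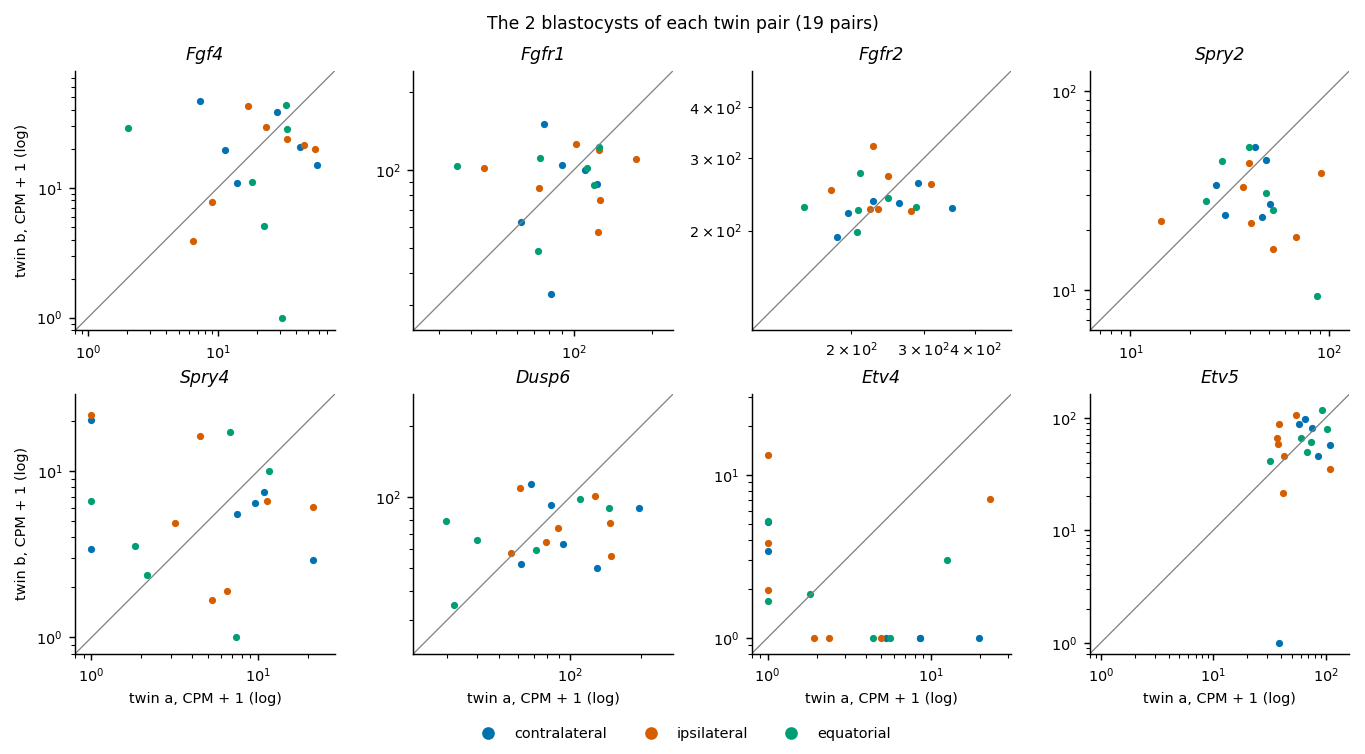
CPM + 1 of each gene in one twin of a pair (lettered a) against the other (lettered b) on log axes for 19 pairs, coloured by ICSI site, with the line of equal levels. Points of Fgfr2 lie near the line with at most 0.63 log2 units between twins, and Fgf4 shows a pair at 30.4 and 0 CPM and Etv5 a pair at 37.1 and 0 CPM.

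Sister blastomeres at the 2-cell stage were compared in the same way. Of all genes, 2058 of 13141 (15.7%) were called, and 0 of the 7 members tested. Spry4 had an ICC of 0.25 (permutation p = 0.0285, adjusted p = 0.115), with a mean difference between sisters of 0.36 log2 units against 0.41 between unrelated blastomeres. The 6 other members tested had ICCs of -0.023 to 0.13 and permutation p of 0.185 to 0.549, and the mean difference between sisters was 1.63 to 2.36 log2 units. The median count per blastomere of these genes was 2 for Fgf4, 9 for Spry2 and 16 to 22.5 for the others, and the part of counting error in the differences between sisters was not tested.

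Whether the ligand and its targets rose and fell together was measured across embryos by Spearman's rho and by Pearson's r of log2(CPM + 1), with 100000 permutations. Across the 31 intact blastocysts, Etv5 was the member that followed Fgf4 most closely, with a rho of 0.74 (p = 1e-05, the smallest that these permutations can give, adjusted p = 0.0153) and an r of 0.85 (adjusted p = 0.0102). By rho it ranked 3 among the 9029 genes tested that had at least 10 CPM on average, and it was the 1 member called of the 5 tested beside 37 of 9164 genes (0.404%). Spry4 had a rho of 0.67 (p = 0.0001) and an r of 0.71 (p = 1e-05), and Etv4 a rho of 0.44 (p = 0.0148) and an r of 0.42 (p = 0.0200). Both fell below the filter and have no adjusted p.

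The other members followed Fgf4 less closely in intact blastocysts, and none was called. Dusp6 had a rho of 0.35 (p = 0.0519, adjusted p = 0.395) and an r of 0.54 (adjusted p = 0.0785). Fgfr1 had a rho of 0.30 (adjusted p = 0.485) and an r of 0.54 (adjusted p = 0.0759), Spry2 a rho of 0.27 and an r of 0.32, and Fgfr2 a rho of 0.17 and an r of 0.33. Within the contralateral, ipsilateral and equatorial groups (n = 11, 8 and 12), the rho of Etv5 with Fgf4 was 0.89, 0.83 and 0.55, that of Spry4 0.53, 0.64 and 0.87 and that of Dusp6 0.62, 0.024 and 0.34. The sign for Etv5 and Spry4 was thus positive at each site, whereas Dusp6 was near 0 in the ipsilateral group. Fgf4 itself had a rho of 0.075 with the total count of the library.

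The call of Etv5 was lost without the embryos at 0 counts of Fgf4, although the sign stayed positive. The same 7 of 31 intact blastocysts had 0 counts of Fgf4 and 0 counts of Etv5, and none of the other 24 had 0 counts of Etv5. Spry4 was at 0 in 6 of these 7 and in 3 of the 24. Without these 7 embryos, a test added after the data had been seen, the rho of Etv5 was 0.44 (p = 0.0319, adjusted p = 0.848) and the r 0.41, that of Spry4 was 0.40 (p = 0.0514) with an r of 0.46, and 0 of all genes were called, with 537 at an unadjusted p under 0.05. In that subset the rho was 0.059 for Dusp6, -0.041 for Fgfr1, -0.16 for Fgfr2, 0.18 for Spry2 and 0.31 for Etv4. Without the 2 embryos farthest from the median of Fgf4 (n = 29), Etv5 had a rho of 0.68 (adjusted p = 0.0611) and Spry4 one of 0.62. The r of Etv5 was 0.82 (adjusted p = 0.00916, still under the threshold). On the log2 scale the 7 embryos at 0 were tied as the farthest, so this setting left out 2 of them by order of embryo number. The others at 0 stayed in, so it cannot show the relation without extreme embryos. Without the 6 embryos under 500000 counts (n = 25), the rho of Etv5 was 0.77 (adjusted p = 0.0611) and the r 0.84 (adjusted p = 0.0131). In the ipsilateral group, which held no embryo at 0, the rho given above was 0.83 over 8 embryos.

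The 7 intact blastocysts at 0 counts of Fgf4 comprised 4 contralateral and 3 equatorial ones and held 271120 to 1254428 counts, with 4 of them above 500000. A count of 0 allows up to 3 counts, which is 2.39 CPM in the deepest and 11.1 CPM in the shallowest of these libraries, and for the shallowest is above the median Fgf4 level of the group. In each of the 7, other members were counted, with 45 to 246 counts of Fgfr2 and 28.4 to 208.5 CPM of Dusp6. The remaining members were lower, with 1 to 66 counts of Fgfr1, 1 to 19 of Spry2 and 0 to 17 of Etv4. Over all intact blastocysts the median counts were 35 for Fgfr1 and 17 for Spry2. The deepest of the 7 libraries held 1 count of Fgfr1. Of 8 epiblast markers, 3 to 6 were at 0 in each of the 7, and the sum of the list was 49.5 to 140.3 CPM. Tdgf1 and Esrrb were each at 0 in 5 of the 7 and Sox2 in 4. Over all 31 intact blastocysts, Tdgf1 was at 0 in 6, Esrrb in 7 and Sox2 in 4. In the 7 libraries the trophectoderm list summed to 4136 to 6602 CPM and the primitive endoderm list to 565 to 1550 CPM. Across all 31 intact blastocysts, the rho with Fgf4 of the epiblast markers was 0.78 for Tdgf1, 0.65 for Sox2, 0.64 for Tdh, 0.59 for Klf2, 0.59 for Esrrb, 0.32 for Nanog and 0.19 for Pou5f1, of which Tdgf1 and Sox2 had an adjusted p under 0.05. Markers of the other cell types, none of them past that threshold by rho, ranged from -0.19 (Dab2) to 0.61 (Sox7) and 0.497 (Lama1) in primitive endoderm, and from -0.58 (Gata3) and -0.57 (Krt8) to 0.53 (Elf5) in trophectoderm. By r, Tdh, Esrrb and the primitive endoderm markers Sox7, Lama1 and Col4a1 were also past it (adjusted p = 0.0102 to 0.0341). The part of cell type content in the relation of Fgf4 and Etv5 was not tested.

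The 5 genes most like Fgf4 across intact blastocysts by rho, among genes of at least 10 CPM on average, were Tdgf1 (0.78), Jam2 (0.77), Etv5 (0.74), Zscan10 (0.73) and Snx10 (0.72), each with an adjusted p of 0.0153. Tdgf1 encodes a co-receptor for Nodal, Jam2 a junctional adhesion molecule, Zscan10 a zinc finger factor of pluripotent cells and Snx10 a sorting nexin. Across twins the 5 were Dmkn (0.86), Entpd1 (0.81), Utp14a (0.78), Alg13 (0.78) and the phosphatase Dusp9 (0.78), with adjusted p of 0.137 to 0.179. No gene was in both sets.

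Across the 19 twin embryos, taken as the mean of both twins, no gene was called (0 of 10994 by rho, 774 or 7.04% at an unadjusted p under 0.05). Spry4 had the highest rho with Fgf4 of the members, 0.70 (p = 0.00144, adjusted p = 0.339), with an r of 0.71, and had a rho of 0.70 and an r of 0.75 without the 2 embryos farthest from the median of Fgf4. It was 0.55 over the twins lettered a alone and 0.68 over those lettered b alone. Etv5 had a rho of 0.45 (p = 0.0529) and an r of 0.31, Dusp6 a rho of 0.44 (p = 0.0616) and an r of 0.45, and Spry2, Fgfr2, Fgfr1 and Etv4 had rho of 0.38, 0.37, 0.34 and 0.31. All 7 were thus positive over the pooled sites, as they were in intact blastocysts. Within the ipsilateral twin embryos (n = 7), however, the rho was -0.21 for Dusp6 and -0.14 for Etv4. Over the twins lettered a alone it was -0.054 for Dusp6, and over those lettered b alone it was -0.037 for Spry2. No twin embryo was at 0 for Fgf4 or Etv5, although 1 single twin was at 0 for each.

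**Figure D5:**
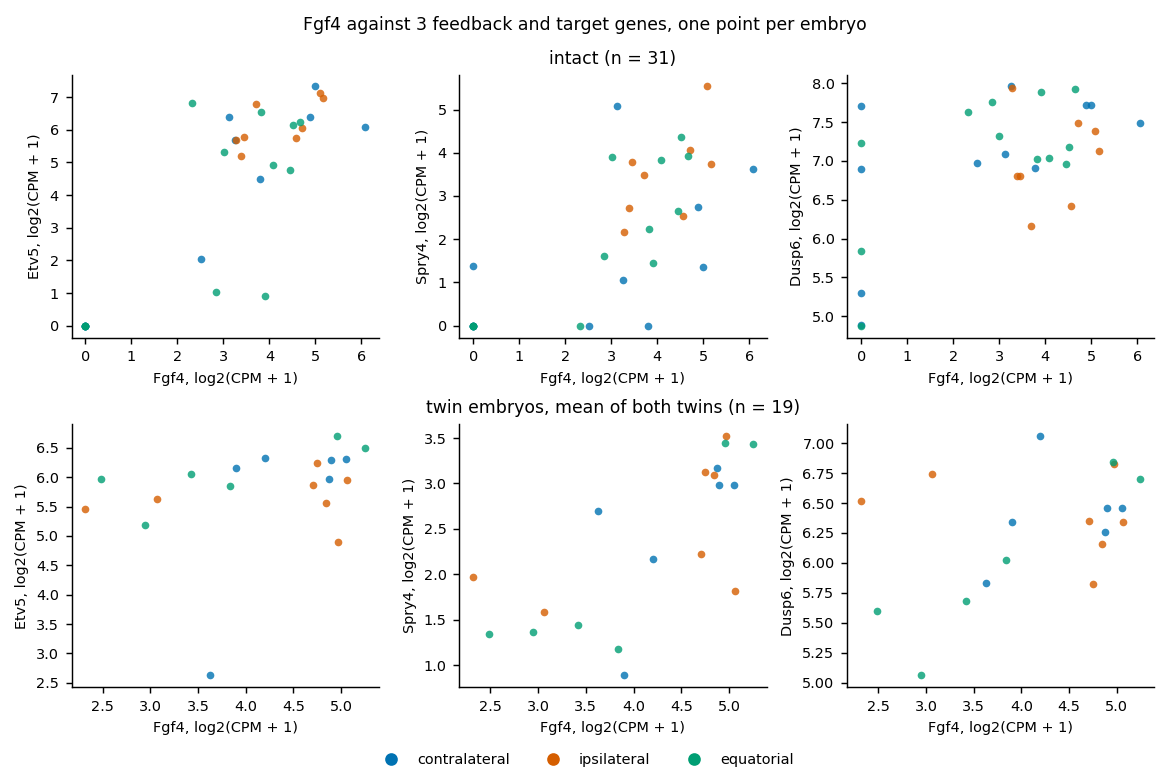
Fgf4 against Etv5, Spry4 and Dusp6 as log2(CPM + 1) in 31 intact blastocysts and in 19 twin embryos (mean of the log2 values of both twins), coloured by ICSI site. In intact blastocysts 7 points stand at 0 of both Fgf4 and Etv5, and rho is 0.74 with and 0.44 without them, whereas twin embryos have a rho of 0.45 for Etv5 and 0.70 for Spry4.

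The 8 genes together made up a mean of 813 CPM per blastomere (325 to 1446), of which Spry4 was most, 548 CPM per twin (278 to 706) and 591 CPM per intact blastocyst (179 to 865), in which Fgfr2 and Dusp6 were the largest terms.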

How the data were processed

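RNA of single blastomeres and single blastocysts was converted to cDNA with the SMART-Seq Single Cell Kit and made into Nextera XT libraries without molecular identifiers. Per the labels and the methods of the study, reads were trimmed with Trimmomatic (version 039), checked with FastQC 0.12.1 and mapped to GRCm38 (gene models of GENCODE M23) with STAR 2.7.10b, in its SmartSeq mode and ignoring strand. The authors deposited raw counts per gene and library, 1 table for 125 blastomeres and 1 for 69 blastocysts, which were mapped separately. The tables had the same totals as the deposited sparse matrices in which reads of equal start and end are counted once. As strand was not used, reads of overlapping antisense genes cannot be told apart. The limits given for counts of 0 cover counting error only, and standard errors and intervals come from the spread between embryos.

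From these counts, CPM were computed per library, and TPM with exon lengths of GENCODE M21 for 32235 genes. Each sample took its group and embryo number from its label, and sisters with the same number and the letters a and b were 1 embryo, so the embryo was the replicate. Nothing in the labels says on how many days or from how many females the embryos came. 2-cell pairs in which a blastomere had fewer than 9500 detected genes were left out, which left 55 of 62 pairs. The study also states a limit on mitochondrial counts, which was applied only as an alternative, at 2% (48 pairs). Counts of sisters were summed and tested with edgeR 4.0.16 in R 4.3.3 (TMM, filterByExpr, robust quasi-likelihood test, Benjamini-Hochberg adjustment over all genes tested, threshold 0.05), with ICSI site as a term between stages and classes and plate as a term at the 2-cell stage. Contrasts between classes or stages share the intact blastocysts, and those with the equatorial group share its embryos. Agreement of sisters and correlation with Fgf4 used log2(CPM + 1) and 100000 permutations, 1-sided for agreement and 2-sided for correlation, in Python 3.11.15 with numpy 2.4.6, scipy 1.17.1 and pandas 2.3.3. The edgeR fits other than that of the difference of site effects, the rank-sum test, and the tests of agreement and correlation were tested on simulated data.

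The alternatives were other size factors, DESeq2 1.42.0, a rank-sum test by permutation, no filter on low counts, depth covariates, no site or plate term, plate 1 or plate 2 only, all pairs, pairs of low mitochondrial share, 1 twin of each pair, no blastocyst under 500000 counts, and pseudocounts of 0.1 and 10 CPM. Named were the 8 members, from the wider list those called between sites and the 4 with the largest called change in each direction in the other comparisons, and the 5 genes most like Fgf4. The members and lists were chosen with earlier results of these data known. Sequences came from RefSeq tables on GRCm38.p6, of which the windows of 5 of the members were used. No column of the tables was without a sample.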

Additional observations from a re-analysis of the deposited data

Results flagged for a closer look

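Among 32 groups of 6 to 8 embryos tested for a single value far from the rest (Dixon's test), 6 held such a value. The rate of about 1 in 20 groups by chance holds for independent values of normal spread. Here the values were CPM, some near 0, and the groups of different genes held the same embryos. That rate can therefore not be set against the 6 groups. 3 of them concerned Etv4, which was close to 0 in most twins, with 10.7 CPM in a contralateral twin embryo (next 3.80, lowest 1.16), 14.5 CPM in an ipsilateral one (next 6.14, lowest 0.488) and 7.27 CPM in an equatorial one (next 2.02, lowest 0.368). A contralateral twin embryo had 154 CPM of Dusp6 (next 91.04, lowest 56.1), and another had 18.96 CPM of Etv5 (next 62.8, highest 85.96). The latter was the embryo in which 1 of the twins had 0 counts of Etv5. An ipsilateral intact blastocyst had 45.3 CPM of Spry4 (next 15.6, lowest 3.49). Groups of more than 10 embryos were not tested.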

How the results depend on the processing

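Of 574 values of single members under an alternative, 536 kept their sign and their side of the threshold, 25 of no call either way changed sign, 8 were no longer called, 5 became called and 0 reversed. Of 170 counts of calls, 144 stayed within 1.5 times the reported count. With every gene of at least 1 count, the genes called were 17998 (reported 10730) between 2-cell embryos and intact blastocysts, 6385 (3967) between twins and intact blastocysts, 3930 (1733), 2603 (874) and 1577 (0) between 2-cell embryos of contralateral and equatorial, ipsilateral and equatorial, and contralateral and ipsilateral ICSI, and 1 (0) between ipsilateral and equatorial twins. This setting keeps and tests many more low genes by its construction. With a depth covariate and only the twin lettered a, 2105 genes were called between twins and intact blastocysts, where twin a without the covariate gave 3505. With depth terms, 1067 genes were called in contralateral and 51 in ipsilateral against equatorial 2-cell embryos, with 0 members in place of 1 in both. Pairs at or under 2% mitochondrial share gave 1104 genes and 0 members in the contralateral contrast. The rank-sum test called 1402 genes in the ipsilateral contrast. Between twins and intact blastocysts it called 5 members (reported 3), beside 5002 of all 9379 genes (reported 3967). DESeq2 called 9, 1 and 1 genes between sites in twins and 1 between contralateral and equatorial intact blastocysts, where edgeR called 0. For the correlation with Fgf4 by rho in intact blastocysts (37 genes, 1 member), residuals after site and total count gave 61 genes, and leaving out embryos under 500000 counts gave 2 genes and 0 members, the 2 farthest embryos 6 genes and 0 members, and the embryos at 0 counts of Fgf4, chosen after seeing the data, 0 genes and 0 members. By r, Etv5 kept its call without the embryos under 500000 counts (0.84, adjusted p = 0.0131) and without the 2 farthest (0.82, adjusted p = 0.00916). The 2 farthest were 2 of the 7 embryos tied at 0 counts of Fgf4, and the others at 0 stayed in. Leaving out embryos under 500000 counts, the 2 farthest and those at 0 counts of Fgf4 kept 25, 29 and 24 embryos. The rho of Etv5 in these settings was 0.77, 0.68 and 0.44, and the cause of the lost calls was not tested. No paired analysis was possible because the embryo numbers are not shared between the groups compared. Depth limits Fgf4, Spry4 and Etv4 most, since intact blastocysts held medians of 7, 2 and 2 counts of them.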

Other observations

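Blastomeres that entered no comparison, because they or their sister had fewer than 9500 detected genes or because they had no sister in the table, numbered 15. They had 588 to 1893 CPM of Spry4 (median 1152), and none was at 0. Fgf4 was at 0 in 9 of them and reached 31.2 CPM, Dusp6 was at 0 in 8 and reached 127.7 CPM, Etv5 was at 0 in 6 and reached 101.1 CPM, and Etv4 was at 0 in 13. Spry2 had a median of 14.1 CPM and a highest value of 355 CPM, and Fgfr1 and Fgfr2 had medians of 10.9 and 4.09 CPM.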
